A study of Mus musculus with 4 samples.

Results

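Principal 6 is a population of principal cells that came almost wholly from the corpus, the narrow middle part of the mouse epididymis. The members were chosen by the population name that the deposited table of cells gives them: 327 cells of the corpus library, 13 of the cauda library and 1 of the caput library. They made up 3.84% of all 8880 cells (95% interval 3.45% to 4.26%) and 8.62% of the 3956 principal cells. Transcripts of single cells were counted in 4 libraries of male FVB/NJ mice aged 10 to 12 weeks, with 1 library for each of 3 regions of the epididymis (caput, corpus and cauda) and 1 for the vas deferens. Each library pooled 8 tissue pieces of the same 4 animals, so that no value below has a replicate, no comparison was tested, and every interval is a 95% interval for counting error only. Levels are UMIs, the counted transcript molecules, of a gene summed over the cells of a population, per 1000000 UMIs of that population (UPM). The populations were defined by clustering the same counts, so a difference between them is a description and not independent evidence.

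The epididymis is the long coiled tube in which sperm mature after leaving the testis. Its principal cells form most of the lining and secrete a fluid whose proteins change from region to region and attach to passing sperm, among them beta-defensins, protease inhibitors of the Kazal, Kunitz and Wfdc families, and secreted ribonucleases. Neuropeptide Y, encoded by *Npy*, is best known as a signal of nerves, and carbonic anhydrases such as *Car4* handle bicarbonate, which acts on sperm motility.

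Principal 6 held 425776 UMIs, with a median of 787 UMIs and 426 genes per cell, and 110 of its cells had fewer than 500 UMIs. A count of 0 in the whole population allows up to 7.05 UPM, taking 3 UMIs as the limit. Principal 7, the other main corpus population, had 346 corpus cells, 18 cauda cells and 1 vas deferens cell, with 643832 UMIs and a median of 458 per cell. Of the 929 principal cells of the corpus library, 35.2% were in principal 6 and 37.2% in principal 7. Of the cells of principal 6, 70.1% had been placed in the cluster of the full data set that is named Cluster18 and 99 cells (29.0%) in Cluster3, while 87.4% of the cells of principal 7 were from Cluster3. The removal of ambient RNA by the authors took a median of 13% of each cell's UMIs in principal 6 and 20.9% in principal 7. A doublet call based on artificial doublets marked 1 cell of principal 6, 12 of principal 7 and 178 (2.00%) of all 8880 cells. It recovered 44.1% of the artificial doublets in the corpus library. In principal 6, 7 of the cells carried a barcode that also occurs in another library. The same held for 4 cells of principal 7 and for 86 of all 8880 cells.

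The cells carried the transcripts of principal cells and few of other cell types. The 9 principal cell markers made up 14.2% of the UMIs, and all 9 were detected. The 10 clear cell markers summed to 0.0737% of the UMIs against 2.47% in clear and narrow cells, and the 15 principal populations ranged from 0.0317% to 0.111%. The 9 basal markers summed to 0.0470%, against 0.868% in basal cells and a range of 0.0114% to 0.0700% over the principal populations. For the muscle, stromal, endothelial and immune lists the sums were 0.0244%, 0.00752%, 0.00658% and 0.000939%. All 9 muscle, 5 of 8 stromal, 4 of 8 endothelial and 3 of 12 immune markers had a UMI in principal 6. The endothelial sum was above the 0.00202% of principal 7, in a range of 0.000356% to 0.00900% over the principal populations. Among the markers without a UMI were *Ptprc*, *Csf1r* and *Tyrobp* (immune), *Col1a1* and *Col3a1* (stromal), and *Pecam1* and *Cdh5* (endothelial).

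Of the 3 marker genes given for the population, *Npy* and *Defb22* were high in principal 6 and principal 7, the corpus pair, and *Rnase12* was high in several populations. *Npy* (GRCm38 chromosome 6, 49822710 to 49829507) stood at 4444 UPM in principal 6 (4246 to 4648) against 3151 in principal 7, while principal 8, a cauda population, had 465 and principal 5, made up of corpus and caput cells, had 92.9. The ratio of principal 6 to principal 7 for *Npy* was 1.41 (1.32 to 1.5), but it was 0.929 when only cells with 500 to 2000 UMIs were summed. *Defb22* (chromosome 2, 152485666 to 152490138) is a beta-defensin of the sperm coat. It stood at 15492 UPM in principal 6 (15120 to 15870) against 6503 in principal 7, and no other principal population exceeded 217. Its ratio of principal 6 to principal 7 was 2.38, and 1.69 when only cells with 500 to 2000 UMIs were summed. *Rnase12* (chromosome 14, 51056698 to 51057242), a member of the RNase A family, stood at 1649 UPM (1529 to 1775), next to principal 4 with 1426 and principal 7 with 1311. Its ratio to principal 4 was 1.16 (0.974 to 1.38), and principal 5 and principal 8 had 1061 and 663 UPM. Its neighbor *Rnase11* was also highest in principal 6, at 160 UPM against 93.2 for principal 7.

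**Figure D1:**
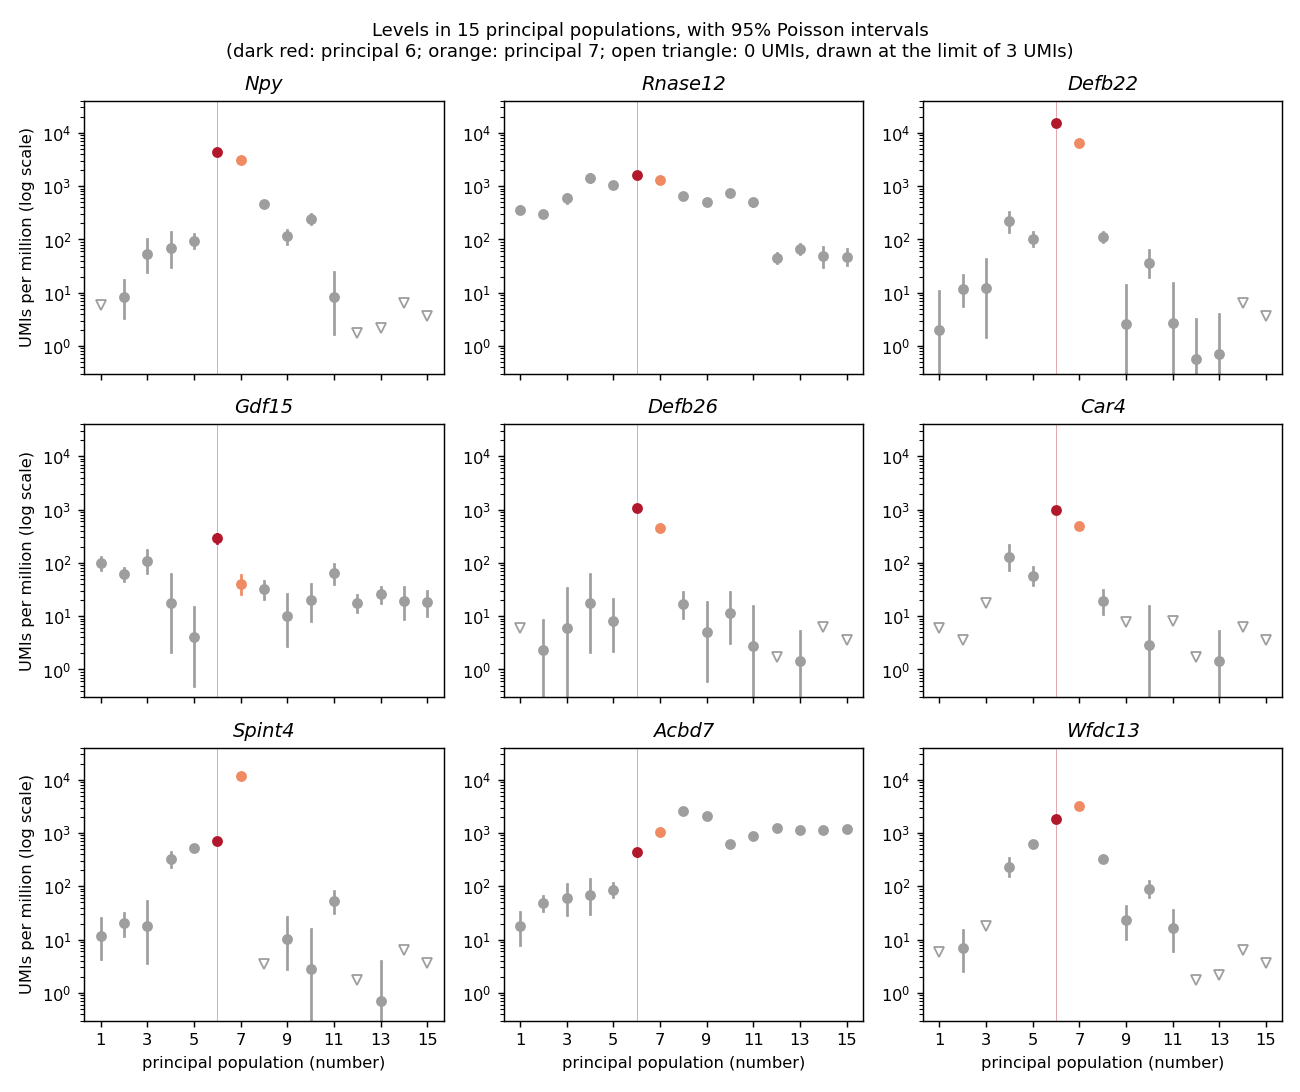
Levels of 9 genes in the 15 principal populations, as UMIs per 1000000 on a log axis with 95% Poisson intervals; open triangles are populations with 0 UMIs, drawn at the limit of 3 UMIs. Npy, Defb22, Defb26 and Car4 are highest in principal 6 and next highest in principal 7, Gdf15 is highest in principal 6 (289 against 40.4 in principal 7), and Spint4 is highest in principal 7 (12000 against 698).

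In single cells thinned to 500 UMIs, 221 of 231 cells of principal 6, or 95.7%, had a *Defb22* UMI (92.2% to 97.9%), against 73.1% of 171 cells of principal 7 (65.8% to 79.6%). For *Npy* the shares were 70.1% (63.8% to 76%) and 68.4% (60.9% to 75.3%), and these intervals overlapped almost fully. Corpus basal cells, which should lack both, gave 4.53% for *Defb22* and 4.12% for *Npy* over 486 cells, with a median depth of 5821 UMIs before thinning against 787 in principal 6. *Rnase12* was seen in 43.3% of the cells of principal 6, 42.7% of those of principal 7 and 1.23% of the corpus basal cells. Of the 231 cells, 157 had both *Npy* and *Defb22*, 64 had *Defb22* only, 5 had *Npy* only and 5 had neither. Without thinning, *Defb22* was found in 92.7% and *Npy* in 66.0% of all cells of principal 6. The thinning left out the 110 shallower cells of principal 6 and 194 of principal 7.

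A small set of genes was higher in both members of the corpus pair than in every other principal population. Other cell types were not part of this comparison, and *Car2*, named below, is also on the clear cell marker list. Among 3122 genes that reached 20 UMIs in both principal 6 and principal 7, 35 (1.12%) were at least 2-fold higher in each of them than in every one of the other 13 principal populations, and 5 were at least 5-fold higher. Those 5 were *Defb22*, *Defb26*, *Bsph2*, *Npy* and *Cyp17a1*. *Bsph2*, a gene of the family that binds sperm membrane lipids, stood at 5287 UPM in principal 6 and 2286 in principal 7, and the next population, principal 8, had 206. *Cyp17a1*, a hydroxylase and lyase of sex steroid synthesis, stood at 322 UPM (270 to 380) and 130 UPM, against 9.49 UPM for principal 8. *Defb26* stood at 1064 and 450 UPM, against 17.4 for principal 4. Further members of the 35 were *Car4* (996 and 491 UPM), *Defb37* (2170 and 1865 UPM), *Sult1e1*, which sulfates estrogens (181 and 124 UPM), *Srgn*, *Car2* and *Lgals1*. Within the 35, 10 were at least 2-fold higher in principal 6 than in principal 7 and 1, *Nrgn*, was at least 2-fold higher in principal 7. Of all 4492 genes that reached 20 UMIs in either population, 15.2% and 12.7% were.

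RefSeq start sites matched 4 of the 5 most restricted genes, *Cyp17a1* being the exception, and the 250 bases before each start are shown because these genes share their pattern over the 15 populations. The windows are on GRCm38: *Defb22* at chr2:152490139-152490388 and *Defb26* at chr2:152511737-152511986, both on the minus strand and in 1 defensin cluster, *Bsph2* at chr7:13571068-13571317 on the minus strand, and *Npy* at chr6:49822460-49822709 on the plus strand. Each is written 5′ to 3′ along its gene, with capitals for any match to TATAAA, to the androgen receptor hexamer AGAACA or to the ETS core AGGAAG, each searched on both strands.
Defb22: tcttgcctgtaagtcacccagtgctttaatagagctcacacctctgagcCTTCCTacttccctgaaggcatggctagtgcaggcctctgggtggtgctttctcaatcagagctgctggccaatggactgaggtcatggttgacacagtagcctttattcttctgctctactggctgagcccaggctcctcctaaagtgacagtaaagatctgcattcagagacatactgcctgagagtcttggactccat
Defb26: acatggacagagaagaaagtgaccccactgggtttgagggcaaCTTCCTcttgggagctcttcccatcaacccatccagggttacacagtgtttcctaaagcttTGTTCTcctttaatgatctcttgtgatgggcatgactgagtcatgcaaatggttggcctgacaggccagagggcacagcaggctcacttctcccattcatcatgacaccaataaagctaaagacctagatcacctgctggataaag
Bsph2: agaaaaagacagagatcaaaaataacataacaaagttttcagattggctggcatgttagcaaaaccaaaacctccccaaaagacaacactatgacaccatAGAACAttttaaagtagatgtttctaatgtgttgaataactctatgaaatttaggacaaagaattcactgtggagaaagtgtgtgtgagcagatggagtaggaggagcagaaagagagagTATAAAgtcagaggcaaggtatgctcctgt
Npy: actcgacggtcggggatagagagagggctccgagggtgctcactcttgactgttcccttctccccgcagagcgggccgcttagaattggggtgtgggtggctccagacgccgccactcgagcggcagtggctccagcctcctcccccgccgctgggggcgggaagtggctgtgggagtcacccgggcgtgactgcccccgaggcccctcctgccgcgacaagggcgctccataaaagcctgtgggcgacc

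In these windows *Bsph2* had a TATAAA match at position -30 from the start and an AGAACA match at -150, and *Defb26* had TGTTCT, the reverse complement of AGAACA, at -146. *Defb22* and *Defb26* had CTTCCT, the reverse complement of AGGAAG, at -201 and -207, and the *Npy* window had no match to any of the 3 motifs. Of all 32851 windows of the same length, 12.4% held TATAAA or its complement, 16.1% the AGAACA hexamer and 29.5% the ETS core. The matches are a description of these letters only.

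Principal 6 was next compared with the highest of the other 14 principal populations, gene by gene. Among 3453 genes that reached 20 UMIs in principal 6, 1218 (35.3%) had their highest level there, and 126 (3.65%) exceeded every other population by at least 2-fold. Principal 7 was the next highest population for 61 of the 126 and principal 10 for 19. Without the cauda library, which left 12 populations of at least 50 cells, the count was 195. The largest ratio was that of *Man2b1*, the lysosomal alpha-mannosidase, at 1109 UPM against 273 UPM in principal 7, a ratio of 4.06 (3.40 to 4.85). *Ints1*, a subunit of the Integrator complex, followed with 294 against 73.0 UPM, and *Ermp1*, a peptidase of the endoplasmic reticulum, with 157 against 41.9 UPM.

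The other genes among the 12 largest ratios were *Trappc10*, *Plekhg1*, *Fam69a*, *Htra1*, *AI464131*, *Acox3*, *Itgav*, *Erlin2* and *Abca2*, with ratios to the next population of 3.29 down to 2.94, where populations with fewer than 3 UMIs were raised to 3. *Abca2*, a lipid transporter of lysosomes, was the most abundant of these at 1001 UPM, against 340 for principal 10. *Itgav*, the integrin alpha V subunit, stood at 244 UPM and *Htra1*, a secreted serine protease, at 197 UPM. *Acox3*, an oxidase of peroxisomes, stood at 294 UPM.

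By level, principal 6 was led mostly by genes that several other populations shared, many of them for secreted proteins. Its 10 most abundant genes took 24.4% of its UMIs, against 16.3% for the 10 leading genes of principal 7. *Crisp1*, a secreted protein that binds sperm, stood at 72435 UPM, which was 2.18 times its level in principal 7 (2.15 to 2.22), but principal 11 had 195180. *Spink8*, a Kazal-type inhibitor, stood at 47217 UPM against 84011 in principal 4. *Cuzd1*, a secreted protein with CUB and zona pellucida domains, was highest in principal 6 at 25708 UPM, 2.49 times the level of principal 10. The rest of the 10 were *Cd52* (17749 UPM), *Defb28* (15868 UPM), *Defb22*, *Wfdc10* (14270 UPM), *Itm2b* (14047 UPM), *AY761185* (10536 UPM) and *B2m* (10381 UPM).

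Principal 6 and principal 7 came from the same library and were most alike over all genes, with a Pearson correlation of log2 levels of 0.78 over 4492 genes, next to 0.67 with principal 10 and 0.65 with principal 8. Among the 4492 genes that reached 20 UMIs in either, 683 (15.2%) were at least 2-fold higher in principal 6 and 570 (12.7%) at least 2-fold higher in principal 7, and the median log2 ratio of all of them was 0.07. In corpus cells alone the counts were 641 and 565, of which 608 and 531 were the same genes as with all cells. These ratios are relative to all UMIs of a population, and leaving the UMIs of ribosomal protein genes out of the totals moved every log2 ratio by -0.16.

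Among the 12 genes with the largest ratios of principal 6 over principal 7, *Gdf15* had the most UMIs. This stress-responsive secreted factor of the TGF-beta family stood at 289 UPM in principal 6 and 40.4 in principal 7, a ratio of 7.15 (4.66 to 11.4), and principal 3 had 108, 2.67 times below principal 6 (1.62 to 4.65). Thinned to 500 UMIs, 10.4% of the cells of principal 6 had a *Gdf15* UMI (6.77% to 15.1%), and 7.00% of corpus basal cells did (4.89% to 9.64%), and these intervals overlapped. *Manba*, the lysosomal beta-mannosidase, stood at 120 against 20.2 UPM (5.93, 3.18 to 11.9), and *Lrrc8a*, a subunit of volume-regulated anion channels, at 86.9 against 10.9 UPM (7.99, 3.52 to 21.2).

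Another 8 of the 12 largest ratios rested on 20 to 36 UMIs in principal 6. They were *Cadm2*, a cell adhesion molecule (28 against 4 UMIs), *Retsat*, the retinol saturase (21 against 1), *Nbas*, *Plekhg1*, *Stox2*, *Trio*, *Xylt2* and *2010300C02Rik*. For *Retsat*, whose ratio was taken with principal 7 raised to 3 UMIs, the counting interval ran from 5.11 to 1313.

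Higher in principal 7 were a pair of Kunitz-type inhibitors and several short transcripts. *Spint4* stood at 12000 UPM in principal 7 and 698 in principal 6, a ratio of 17.2 (15.3 to 19.4). *Spint5*, nearby on chromosome 2, stood at 6581 and 911 UPM (7.22, 6.51 to 8.03). Thinned to 500 UMIs, 19.9% of the cells of principal 7 and 3.03% of those of principal 6 had a *Spint4* UMI. For *Spint5* the shares were 26.9% and 13.9%. For *Spint4* the ratio of principal 6 to principal 7 was 0.0581, and it was 0.211 with the deposited size factors and 0.230 in cells with 500 to 2000 UMIs. *Crip1*, a small LIM domain protein, stood at 2766 and 174 UPM (15.9, 12.6 to 20.4), and *Cd24a*, a cell surface glycoprotein, at 261 and 11.7 UPM (22.2, 9.34 to 69.3). *Tmsb10*, which binds actin, stood at 191 and 18.8 UPM and *Rbm3*, an RNA-binding protein, at 438 and 56.4 UPM. *Plac8*, *Atp6v1g3*, *Cxcl14*, *Gadd45b*, *Btf3*, *Gm6792* and *Tomm7* completed the 12, with ratios of 12.2 down to 7.55. *Wfdc13* and *Acbd7* were also higher in principal 7, by 1.73 (1.59 to 1.88) and 2.40 (2.04 to 2.84).

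**Figure D2:**
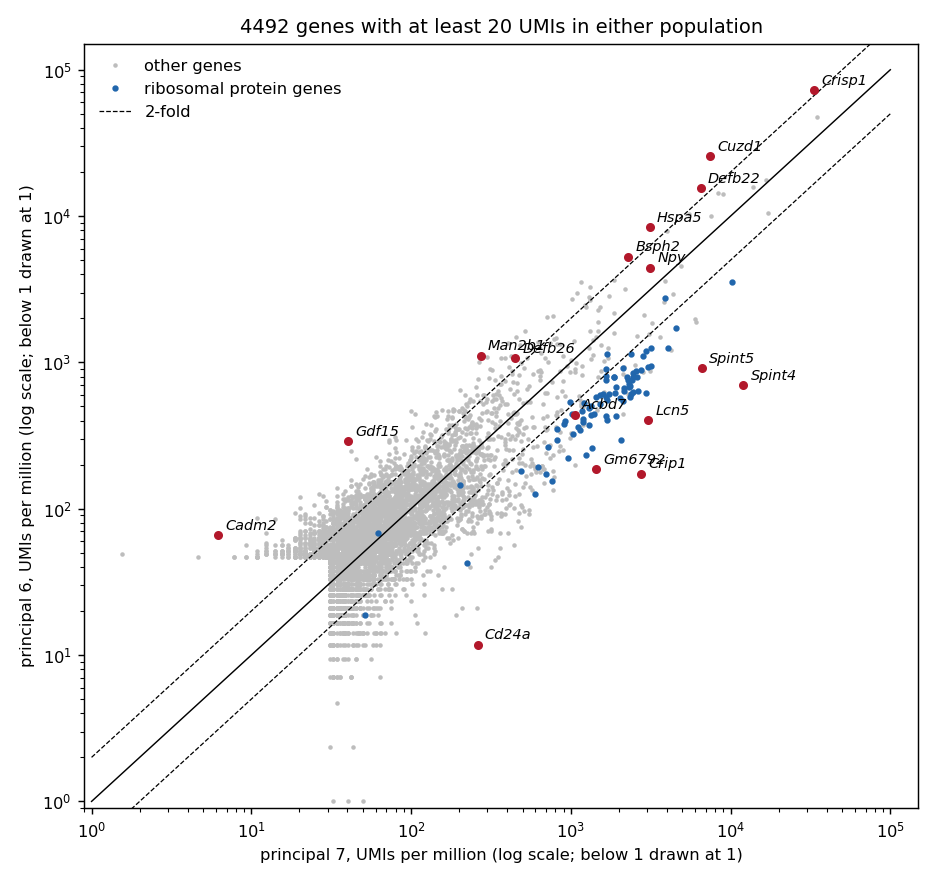
Level of each of 4492 genes in principal 7 and in principal 6, as UMIs per 1000000 on log axes; the solid line marks equal levels and the dashed lines a 2-fold difference. Most ribosomal protein genes lie below the lower dashed line, with Spint4, Spint5, Crip1 and Lcn5, while Cuzd1, Defb22, Man2b1 and Gdf15 lie above the upper line.

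The counts of the gene lists are read against all 4492 counted genes, of which 15.2% were at least 2-fold higher in principal 6 than in principal 7 and 12.7% at least 2-fold lower, around a median log2 ratio of 0.07. The 27 counted genes for folding and secretion in the endoplasmic reticulum made up 2.71% of the UMIs of principal 6 and 1.47% of those of principal 7. Of these, 6 were at least 2-fold higher in principal 6, 2 at least 2-fold lower and 19 in between, which is not far from the shares of all genes, while the list's median log2 ratio was 0.78. *Hspa5*, the main chaperone of this compartment, stood at 8366 and 3110 UPM, *Pdia6* at 2057 and 714 UPM and *Pdia4* at 892 and 322 UPM. The 2 lower genes were *Sec61b* (75.2 against 489 UPM) and *Sec61g* (233 against 769 UPM), short subunits of the translocation channel. *Hspa5* was higher still in principal 4, at 9285 UPM.

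The 81 counted ribosomal protein genes took 5.26% of the UMIs of principal 6 against 15.1% in principal 7, 16.1% in principal 5 and 19.4% in principal 8, but 2.21% in principal 4 and 5.22% in principal 10. Against principal 7, 75 of the 81 were at least 2-fold lower in principal 6 and none at least 2-fold higher, with a median log2 ratio of -1.60. *Rpl35* had 125 UMIs in principal 6 and 1331 in principal 7. Of 69 counted nuclear genes for mitochondrial proteins, 38 were at least 2-fold lower in principal 6 and none higher, with a median log2 ratio of -1.02. The low ribosomal share was found in cells of every depth. In cells with fewer than 500 UMIs the median share was 3.70% in principal 6 and 12.5% in principal 7, and in cells with at least 2000 UMIs it was 5.30% (quartiles 4.06% and 6.81%) and 14.9% (11.7% and 18.1%).

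**Figure D3:**
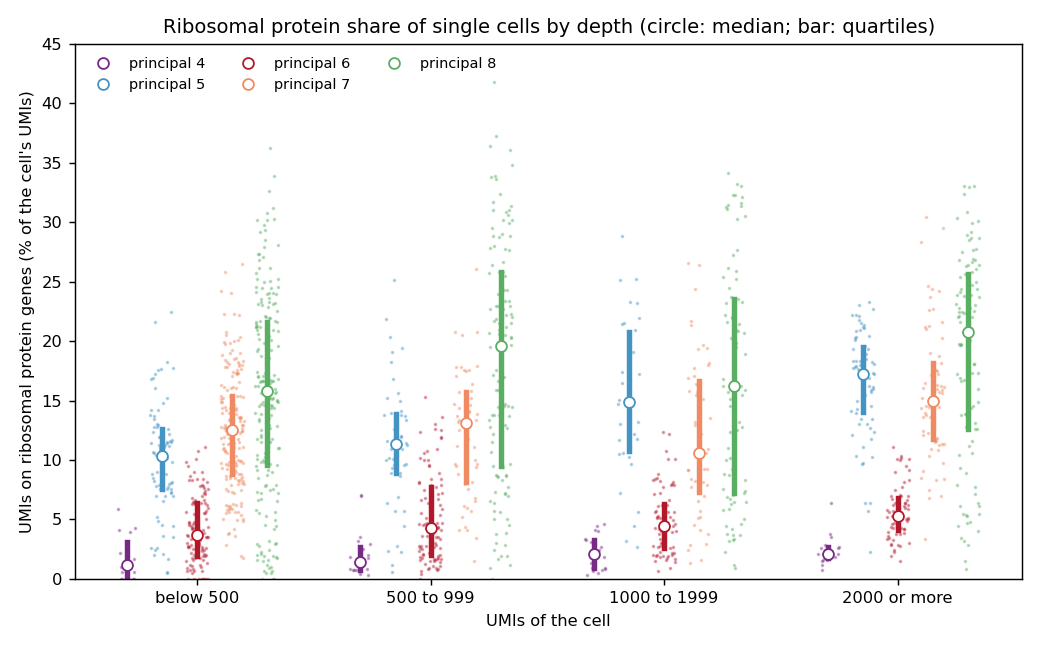
Share of each cell's UMIs that fell on ribosomal protein genes, by the depth of the cell, in 5 principal populations; circles are medians, bars run between the quartiles and dots are cells. In every depth class the upper quartile of principal 6 (6.33% to 7.76%) lies below the lower quartiles of principal 5, 7 and 8 of that class, and the medians of principal 4 (1.18% to 2.09%) lie below those of principal 6.

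The differences between principal 6 and principal 7 moved with the length of the transcript. For genes with a median annotated transcript below 800 bases the median log2 ratio was -0.53 (714 genes), and it was -0.25, 0.08, 0.38 and 0.69 in the classes from 800, 1500, 2500 and 4000 bases upward. Without the ribosomal protein genes the shortest class had a median of -0.46. The genes at least 2-fold higher in principal 6 had a median length of 3026 bases, those lower 926 bases, and all counted genes 1773 bases. From the shortest to the longest class, the median log2 ratio of principal 6 over principal 8 ran from -0.21 to 0.90. That of principal 6 over principal 5 ran from -0.25 to 0.69, and that of principal 4 over principal 5 from -1.17 to -0.86. The part of transcript length in the gene lists was not tested.

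Many of the genes that were lower in principal 6 were also lower in principal 4, another mostly corpus population with few ribosomal protein transcripts. The log2 ratios of principal 6 over principal 7 and of principal 4 over principal 5 had a Pearson correlation of 0.51 over 2914 genes counted in both pairs and of 0.47 without ribosomal protein genes. The 4 populations share no cells, but all 4 come mostly from the corpus library, with 55 of the 74 cells of principal 4 and with 172 corpus cells beside 67 caput cells in principal 5. Of 452 genes at least 2-fold lower in principal 6 than 7, 364 (80.5%) were at least 2-fold lower in principal 4 than 5, a direction taken by 1434 (49.2%) of all 2914 genes, and they were 25.4% of those 1434. Of 282 genes at least 2-fold higher in principal 6, 24 (8.51%) were higher in principal 4, a direction taken by 100 genes (3.43%), of which they were 24.0%, and 58 were lower.

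In the transport and peptide processing lists no counted gene was at least 2-fold lower in principal 6 than in principal 7. Of 9 counted genes for ion and water transport, 6 were at least 2-fold higher in principal 6 than in principal 7, against 15.2% of all genes, and 8 of the 9 were highest in principal 6 of all 15 populations, against 35.3% of the genes with at least 20 UMIs there. These included *Slc22a5*, the carnitine transporter, at 211 against 63.7 UPM, and *Aqp9*, a water and glycerol channel, at 132 against 45.0 UPM. For *Aqp9* the ratio to the next population, principal 10, was 1.22 (0.795 to 1.90). The median log2 ratio of the 9 transport genes to principal 7 was 1.01, close to the 2-fold limit, and the count of 6 depended on scaling. It was 2 without ribosomal protein UMIs in the totals, 3 as a mean of cell shares and 4 with the deposited size factors. Of all 4492 genes, 486, 731 and 690 were that much higher under these settings. *Car4*, which sits on the cell surface, had a ratio of 2.03 (1.75 to 2.35), while *Car2*, the cytosolic enzyme, was at 247 and 264 UPM. Of 7 counted genes for peptides and their processing, *Npy* among them, 4 were at least 2-fold higher: *Mme* (648 against 202 UPM), *Dpp4* (171 against 55.9 UPM), *Cpd* (258 against 79.2 UPM) and *Furin* (143 against 41.9 UPM). *Mme* and *Dpp4* encode peptidases of the cell surface, and *Dpp4* is known to trim neuropeptide Y. Principal 10 was the next population for both, with a ratio of 1.06 for *Mme* (0.887 to 1.28) and 1.06 for *Dpp4* (0.741 to 1.53).

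For *Npy* itself, the converting enzymes of neurons were scarce. *Pcsk1* had no UMI in principal 6 and *Pcsk2* had 4, and *Pam* and *Cpe*, which finish peptide hormones, had 2 and 8 UMIs against 801 and 1370 UPM in a stromal population. Among the receptors, *Npy2r* had 12 UMIs in principal 6, or 28.2 UPM (14.6 to 49.2), against 6.21 for principal 7 (1.69 to 15.9). In thinned cells it was seen in 5 of 231 in principal 6 (0.706% to 4.98%) and 1 of 171 in principal 7 (0.0148% to 3.22%). These intervals overlapped, and 0 of 486 corpus basal cells, which were deeper before thinning, had a UMI. *Npy1r* had no UMI in principal 6 and was highest in a muscle population, at 36.3 UPM (18.1 to 65). *Npy6r* had 4 UMIs in principal 6. *Npy4r* and *Npy5r* have no values here.

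Among the proteins that coat sperm, *Adam7*, a metalloprotease-like protein of the sperm surface, stood at 3561 against 1151 UPM in principal 7. *Mfge8*, which binds membrane phospholipid, stood at 489 against 208 UPM. Thinned to 500 UMIs, *Adam7* was seen in 64.1% of the cells of principal 6 and 89.4% of those of principal 1. None of the 8 genes of that list with at least 20 UMIs in principal 6 was highest there, against 35.3% of all such genes. Of 9 counted genes of that list, 4 were at least 2-fold higher in principal 6 than in principal 7. Of all genes, 15.2% were that much higher and 12.7% that much lower, and the beta-defensin and glutathione counts were not far from these shares. Of 21 counted, *Defb22* and *Defb26* were at least 2-fold higher in principal 6, *Defb29*, *Defb30*, *Defb21* and *Defb1* at least 2-fold lower, and 15 were in between. The ratio of *Defb21*, 0.252 with 13 UMIs in principal 6, turned to 2.39 in cells with 500 to 2000 UMIs. The 4 Kazal and Kunitz inhibitors that were at least 2-fold lower were *Spint4*, *Spint5*, *Spink11* and *Spink12*, and none of the 12 counted was at least 2-fold higher. Of 18 counted genes of glutathione metabolism, *Mgst3* was at least 2-fold higher, while *Gpx4* (249 against 846 UPM), *Gstm1* (519 against 1166 UPM) and *Gsta4* were at least 2-fold lower.

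**Figure D4:**
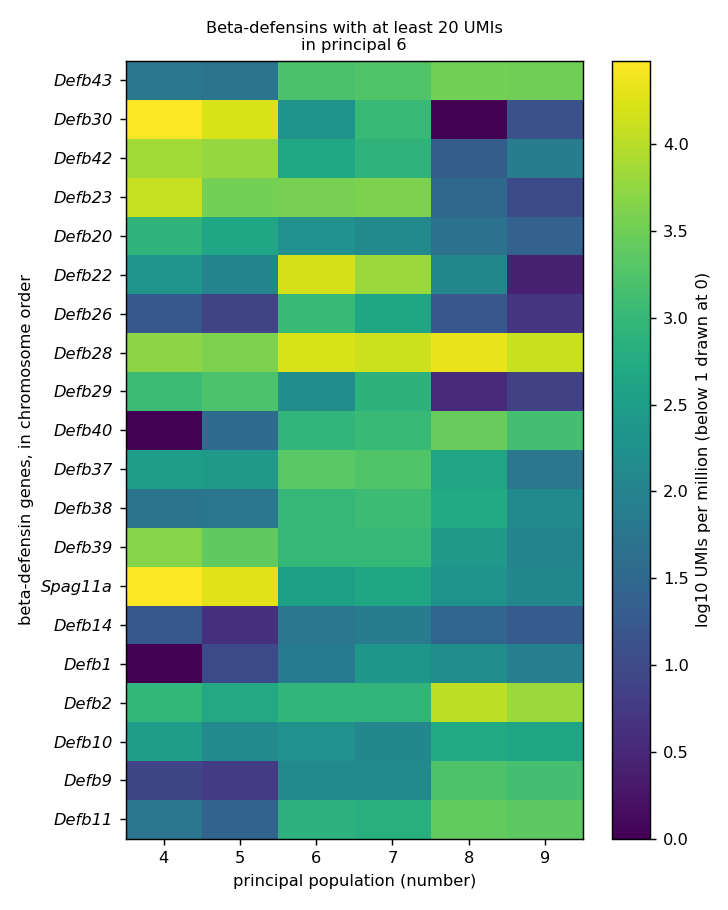
Levels of the 20 beta-defensin genes with at least 20 UMIs in principal 6, as log10 UMIs per 1000000, in principal 4 to principal 9, with genes in chromosome order. Defb22 and Defb26 are highest in principal 6 and next in principal 7, Defb30 is highest in principal 4 (29716 UMIs per 1000000, against 199.6 in principal 6), and Defb2 is highest in principal 8 (11029, against 871 in principal 6).

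The stress lists had few genes past 2-fold in either direction. *Gdf15* and *Slc7a11*, a cystine transporter (139 against 34.2 UPM), were the 2 of 14 counted genes of the integrated stress response that were at least 2-fold higher in principal 6, and *Ddit4* and *Cebpg* were the 2 that were lower, both close to the shares of all genes (15.2% and 12.7%). Of 18 genes that respond to tissue dissociation, *Hspa1a* was 2.00-fold higher at 2450 UPM, *Hspb1* and *Nr4a1* were at least 2-fold lower and 15 were in between, with a list median of -0.11. *Insr*, the insulin receptor, stood at 143 against 41.9 UPM and *Prlr*, the prolactin receptor, at 317 against 134 UPM. Of 15 counted transcription factors none was at least 2-fold higher and *Id3*, *Emx2* and *Sox9* were at least 2-fold lower.

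Lists of lysosomal and cholesterol genes were written after their leading genes had been seen, so their counts are no independent evidence. Of 26 counted lysosomal enzymes 17 were at least 2-fold higher in principal 6 than in principal 7 and none lower, against 15.2% and 12.7% of all genes, with a median log2 ratio of 1.17. Of the 25 with at least 20 UMIs, 16 were highest in principal 6 of all 15 populations, against 35.3% of all such genes. They included *Glb1l2* (1066 UPM), *Neu1* (928 UPM), *Glb1l3* (770 UPM) and *Glb1* (425 UPM), all glycosidases. Of 10 lysosomal membrane genes 4 were at least 2-fold higher, with *Clcn7* and *Ostm1*, which together form a chloride exchanger, at 148 and 124 UPM. Of 19 counted genes of the cholesterol list 10 were at least 2-fold higher and none lower, among them *Cyp51*, which demethylates lanosterol, at 378 against 124 UPM. Against principal 8, 3 of 22 counted genes of that list were at least 2-fold higher and 5 lower, against 26.4% and 11.7% of all 4682 genes counted there.

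**Figure D5:**
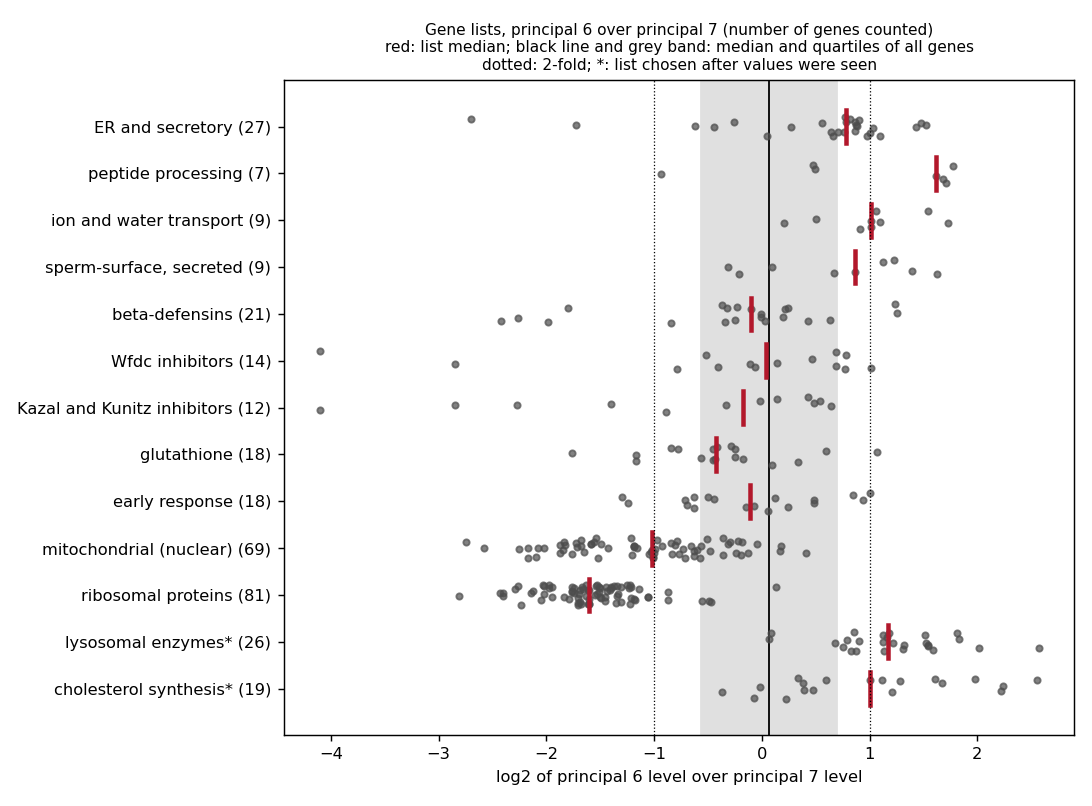
Log2 ratio of the level in principal 6 to that in principal 7 for the counted genes of 13 lists; red bars are list medians, the grey band holds the middle 50% of all genes, and an asterisk marks lists chosen after values were seen. Ribosomal protein genes (median -1.60) and mitochondrial genes (-1.02) lie to the left, and endoplasmic reticulum (0.78) and lysosomal enzyme genes (1.17) to the right.

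Principal 6 was also compared with principal 5 and with the cauda population principal 8. Against principal 5, 1072 of 4088 genes (26.2%) were at least 2-fold higher in principal 6 and 619 (15.1%) lower. Against principal 8, 1236 of 4682 (26.4%) were higher and 548 (11.7%) lower. *Defb22* was 150-fold (114 to 202) and 139-fold (113 to 172) higher than in principal 5 and principal 8, and *Defb26* 129-fold (50.0 to 475) and 64.1-fold (37.8 to 118). *Ramp1*, a coreceptor for peptide hormones, stood at 803 UPM with no UMI in principal 5, a difference of at least 130-fold, while its ratio to principal 8 was 0.958 (0.839 to 1.09). *Ly6f*, *Abcb5*, *Ltf*, the iron-binding lactoferrin, and *Lrp2*, an endocytic receptor, were 158-fold, 130-fold, 94.4-fold and 72.1-fold higher than in principal 5, the last with its 2 UMIs there raised to 3 (29.5 to 899), and all 4 were found in principal 8, at 216 to 3287 UPM.

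In the other direction, *Gpx5*, *Defb21*, *Lcn5*, *Defb15*, *Rnf149*, *Defb30*, *Muc15* and *St6gal1* had the largest ratios of principal 5 over principal 6. *Lcn5*, a lipocalin that carries retinoids, stood at 45644 UPM in principal 5, 404 in principal 6 and 3041 in principal 7, and it had no UMI in principal 8. Against principal 8, *Spink14* had no UMI in principal 6 and 1993 UPM in principal 8, which is at least 283-fold higher. *D730048I06Rik* (6998 against 150 UPM), *Krt19* (397 against 16.4 UPM), *Slc7a15*, *Mmp7*, *Smpx* and *Spink5* were also higher in principal 8. *Acbd7* stood at 86.7 UPM in principal 5, 439 in principal 6, 1056 in principal 7 and 2566 in principal 8.

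Genes that separate principal 5 from principal 8 by at least 4-fold were summed. Both sums were nearer to those of the cauda population in principal 6 than in principal 7. From marker genes, however, the paper places the nearer member of the corpus pair earlier along the tube. The 223 genes (4.87% of 4579) higher in principal 5 took 23.0% of its UMIs, 4.63% of those of principal 6, 7.46% of those of principal 7 and 0.752% of those of principal 8. The 253 genes (5.53%) higher in principal 8 took 27.4% of the UMIs there, 20.5% in principal 6, 13.1% in principal 7 and 2.38% in principal 5. Gene by gene the order was less clear for the first set, with 94 of the 223 higher in principal 6 and a median log2 ratio of principal 6 over principal 7 of 0.0014. For the second set 149 were higher in principal 6 and 102 in principal 7, with a median of 0.37.

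Within principal 6, *Spint4* had the highest variance for its mean, and few cells carried it. In cells thinned to 500 UMIs, the Fano factor, the variance divided by the mean, was 41.2 for *Spint4*, 17.5 for *Crisp1*, 12.8 for *Spint5* and 10.6 for *Spink8*, against a median of 1.57 over the 264 genes with at least 50 thinned UMIs. *Spint4* was found in 12 cells of the whole population, and 5 cells held 272 of its 297 UMIs, or 91.6%, with 196 of them in 1 cell. *Spint5* was found in 60 cells, with 52.3% of its UMIs in 5 of them and 144 of its 388 UMIs in 1 cell, and *Lcn5* in 22 cells, with 51.7% in 5. *Defb22* by contrast had 9.45% of its UMIs in 5 cells and *Npy* had 12.3%. The others of the 10 most variable genes were *Ptgds*, *AY761185*, *Lcn5*, *Wfdc10*, *Hspa1a* and *Gm17252*, with Fano factors of 8.22 down to 3.98. In principal 7 the Fano factors of *Spint4*, *Spint5*, *Lcn5*, *Crisp1* and *Spink8* were 32.4, 16.5, 8.39, 7.98 and 5.53.

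The cells from Cluster18 and Cluster3 had similar levels of the marker genes, with *Defb22* and *Npy* somewhat higher in the Cluster18 cells. *Defb22* stood at 16367 UPM in the Cluster18 cells and 13986 in the 99 Cluster3 cells, *Npy* at 4791 and 3812 UPM, and *Rnase12* at 1666 and 1586 UPM. Of 2197 counted genes 106 (4.82%) were at least 2-fold higher in the Cluster18 cells and 148 (6.74%) in the Cluster3 cells. The ribosomal protein share was 4.53% in the Cluster18 cells and 6.60% in the Cluster3 cells, against 15.1% in principal 7. *Lcn5* stood at 228 and 735 UPM and *Wfdc13* at 1495 and 2523 UPM, while *Gdf15* (282 and 304 UPM) and *Man2b1* (1133 and 1073 UPM) were similar. *Spint4* stood at 76 against 1862 UPM and *Spint5* at 427 against 1822 UPM, but a few cells carried most of these UMIs. Thinned to 500 UMIs, 2 of 158 Cluster18 cells and 5 of 72 Cluster3 cells had a *Spint4* UMI. For *Spint5* the shares were 12.0% (7.40% to 18.1%) and 18.1% (9.98% to 28.9%), with overlapping intervals. *Ptgds*, a lipocalin-type prostaglandin synthase, was higher in Cluster18 cells at 10233 against 3373 UPM. *Crisp1* had a median of 39.5 UMIs per 500 in 158 thinned Cluster18 cells and 22 in 72 Cluster3 cells.

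The 13 cells from the cauda library resembled the corpus cells in part. *Npy* stood at 2652 UPM there and 4518 UPM in the 327 corpus cells, *Rnase12* at 2411 and 1619 UPM, and *Defb22* at 5787 and 15888 UPM. *Defb23* had 1 UMI in the cauda cells, or 60.3 UPM, against 3740 UPM in the corpus cells, while *Crisp1* stood at 131103 against 70075 UPM and *Ptgds* at 17782 against 7483 UPM. *Spint4*, *Spint5*, *Lcn5* and *Defb30* had no UMI in the cauda cells. These 13 cells held 16590 UMIs, so that 3 UMIs stand for 181 UPM.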

How the data were processed

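Single-cell transcripts were measured in 4 libraries, 1 per region. The deposited values are whole UMI counts of 16892 genes in 8880 cells. The authors aligned reads to mm10 with HISAT2 2.0.4 after bcl2fastq, counted UMIs near transcript ends with ESAT, ignored reads with several origins, and removed ambient RNA from each cell. Because transcript ends are counted, levels were not divided by length. The deposited size factor of each cell, a ratio, was used for an alternative only, and the deposited embedding and component score columns were not used. Per-sample columns without a sample numbered 0.

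Populations are those of the deposited table, whose names do not carry the numbers of the paper. The numbers used here were matched to those names through cell numbers. Principal 6 is the population of 341 cells and principal 7 that of 365. Levels have exact Poisson intervals, ratios exact conditional binomial intervals, and shares Clopper-Pearson intervals, all at 95% and for counting error only. A gene was counted in a comparison where the higher population reached 20 UMIs, and the lower population was raised to 3 UMIs for a ratio. With 1 library per region no test was run and no p-value given. The genes named are the marker genes of the population, the largest ratios with at least 20 UMIs (12 each way against principal 7, 12 over all other populations, 8 each way against principal 5 and principal 8), the 10 highest levels, the 10 highest Fano factors, and list members that were high or past 2-fold. The members and lists were chosen with earlier results of these data known. Genes of the corpus pair, the motifs, the promoters, the length classes, the cluster of origin, the lists of lysosomal and cholesterol genes and the comparison with principal 4 and principal 5 were added after values were seen. Names that the cystatin pattern caught in error (5) were left out. Lists that the text does not give (Wfdc inhibitors, serpins, cystatins, lipocalins, aldo-keto reductases and the RNase A family) had median log2 ratios to principal 7 of 0.04, -1.04, -0.87, 0.03, -0.27 and 0.67 over 14, 4, 2, 4, 7 and 3 counted genes. Doublets were called per library with 1500 genes, 30 components and 50 neighbors at 0.8% per 1000 cells and were kept. The rules for ratios and intervals were tested on simulated Poisson counts without variation between cells. Such counts cannot show how the rules behave for genes as uneven as *Spint4*. Positions and start sites are from RefSeq on GRCm38.p6, which is the assembly of mm10, and matched 315 of 321 named genes, and lengths are from GENCODE. Values of some genes that these rules name are not reported here. Alternatives covered thresholds, depth, library, doublets, scaling and thinning. Python 3.11.15, numpy, scipy, pandas and scikit-learn were used.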

Additional observations from a re-analysis of the deposited data

How the results depend on the processing

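No paired analysis was possible because each region had 1 library. For principal 6 against principal 7, the genes higher and lower in principal 6 numbered 1331 and 1100 at 1.5-fold and 42 and 100 at 4-fold, 1168 were higher with at least 10 UMIs, 267 and 379 were higher and lower with at least 50 UMIs, and 256 and 266 in cells with 500 to 2000 UMIs, a range chosen after seeing the data. Left out in turn, the caput, cauda and vas deferens libraries gave 654 to 682 higher and 570 to 583 lower genes. Against principal 5 the counts at 4-fold were 415 and 216, and against principal 8 they were 314 and 166. Over the other 14 principal populations, 429 genes were higher at 1.5-fold, 2 at 4-fold, 63 with at least 50 UMIs and 60 in cells with 500 to 2000 UMIs, and 111 to 195 without the caput, cauda or vas deferens library in turn, counting populations of at least 50 cells. The ribosomal protein share of principal 6 over that of principal 7 was 0.348, and it was 0.377 as a mean of cell shares, 0.359 with the deposited size factors, 0.357 in corpus cells, 0.415 in cells with 500 to 2000 UMIs, 0.299 for the Cluster18 cells of principal 6 (added after seeing the data) and 0.348 to 0.356 without a library. Thinned to 1000 UMIs, 89.9% of the cells had *Npy* and 69.1% had *Rnase12*. *Defb21*, at a ratio of principal 6 to principal 7 of 0.252, reversed to 2.39 in cells with 500 to 2000 UMIs, and the cause was not tested. Of 82 named genes, 8 moved to the other side of a ratio of 1 in those cells, and 0 to 4 did under each other setting. The median log2 ratios of the endoplasmic reticulum, transport, peptide, sperm-surface, lysosomal and cholesterol lists stayed above 0 and those of the ribosomal and mitochondrial lists below 0 under all 12 settings, while those of the Wfdc, Kazal and Kunitz, serpin, lipocalin and transcription factor lists changed sign. Principal 8 could not be compared in corpus cells alone, as it had 22 of them.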
